A study of Mus musculus with 2 samples.

Results

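General capillary endothelial cells of the mouse lung were selected from 2 droplet single-cell libraries on their raw UMI values, a UMI being 1 counted mRNA molecule. A member held at least 3 UMIs of Gpihbp1, Plvap, Cd93, Ptprb and Sema3c together and at least 1 of Gpihbp1 or Plvap. It held at most 1 UMI of the aerocyte genes Car4 and Ednrb, at most 1 of the venous and lymphatic genes Vwf, Slc6a2, Mmrn1 and Prox1, at most 1 of the fibroblast gene Col1a2, and none of the leukocyte gene Ptprc. The rule found 1036 members among 27974 cells that passed the quality filter, namely 424 of 15111 in the Nkx2.1 Cre;Lkb1f/f library and 612 of 12863 in the Lkb1f/f library.

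Each library came from the pooled lungs of 3 mice at 5 weeks of age. Both genotypes carried the floxed Lkb1 allele, and the Nkx2.1 Cre;Lkb1f/f mice (the Cre library below) also carried a Cre recombinase under Nkx2.1, a transcription factor gene of the lung epithelial lineage, so that the capillary cells are not the lineage in which that Cre is known to act. The Lkb1f/f library is the control below. With 1 library for each genotype there was no spread between animals and no test could be made, so every interval below is an exact 95% interval that covers counting error only.

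General capillary cells line most of the alveolar capillary network, beside the larger aerocytes that specialise in gas exchange. They serve as the progenitors of the capillary bed in turnover and repair, respond to VEGF through Kdr and Flt1, and guide leukocytes and lipids across the vessel wall. Gpihbp1 carries lipoprotein lipase to the lumen, and Plvap forms the diaphragms of fenestrae and caveolae.

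Members made up 2.81% of the cells of the Cre library, against 4.76% of those of the control library, a log2 ratio of the shares of -0.76 (-0.94 to -0.58). Measured against endothelial cells alone, which had at least 3 UMIs of Pecam1, Cdh5, Cldn5 and Egfl7, the shares were 29.0% in the Cre library and 33.9% in the control library, and the log2 ratio was -0.23. Among cells with 1000 or more UMIs it was -0.58. All endothelial cells were 8.45% of the Cre library and 12.5% of the control library. These are shares, which also fall when other cells are more numerous. Fewer capillary cells in the tissue, fewer recovered in dissociation and more of other cells cannot be told apart here. The libraries shared 68 barcodes, of which 5 were members in the Cre library and 6 in the control library, and none was a member in both.

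The label was checked on genes the rule did not use, first on epithelial and pan-endothelial genes, by which most members and not all were endothelial. In the Cre library 34 members (8.02%), and in the control library 33 members (5.39%), held 3 or more UMIs of the epithelial genes Epcam, Cdh1, Krt7, Krt8, Krt18 and Cldn7. They were deep, with a median of 7999 UMIs in the Cre library and 12126 in the control library, and supplied 38.2% of all member UMIs in the Cre library and 43.6% in the control library. The rule markers are given as a description only, since the cells were chosen on them. In these members they had a median of 0.572 UMIs per 1000 in the Cre library and 0.349 per 1000 in the control library. Pecam1, Cdh5, Cldn5 and Egfl7 are pan-endothelial genes outside the rule. Their median was 0.600 UMIs per 1000 in the Cre library and 0.301 per 1000 in the control library. The other members, 390 in the Cre library and 579 in the control library, had a median of 1046 UMIs in the Cre library and 931 in the control library, with 9.35 rule-marker UMIs per 1000 in the Cre library and 9.62 per 1000 in the control library. Pan-endothelial UMIs in these other members had a median of 9.26 per 1000 in the Cre library and 9.26 per 1000 in the control library. At least 1 UMI of Pecam1, Cdh5, Cldn5 or Egfl7 was found in 98.7% of them in the Cre library and in 98.6% in the control library. Markers of other endothelial types outside the rule were found in some of these members. At least 2 UMIs of the arterial genes Gja5, Gja4, Hey1, Dkk2 and Bmx were held by 19.0% of them in the Cre library (15.2 to 23.2%) and 14.9% in the control library (12.1 to 18.0%), and at least 2 of the lymphatic genes Ccl21a, Lyve1 and Flt4 by 9.49% in the Cre library (6.77 to 12.8%) and 13.8% in the control library (11.1 to 16.9%). The arterial UMIs were mostly of Gja4, a connexin gene (411 CPM in the Cre library and 372 CPM in the control library), and the lymphatic ones mostly of Lyve1, a hyaluronan receptor gene (231 CPM in the Cre library and 419 CPM in the control library). Venous and aerocyte genes outside the rule reached 2 UMIs in at most 1.04% of either library. The part of these cells in the gene differences was not tested.

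**Figure D1:**
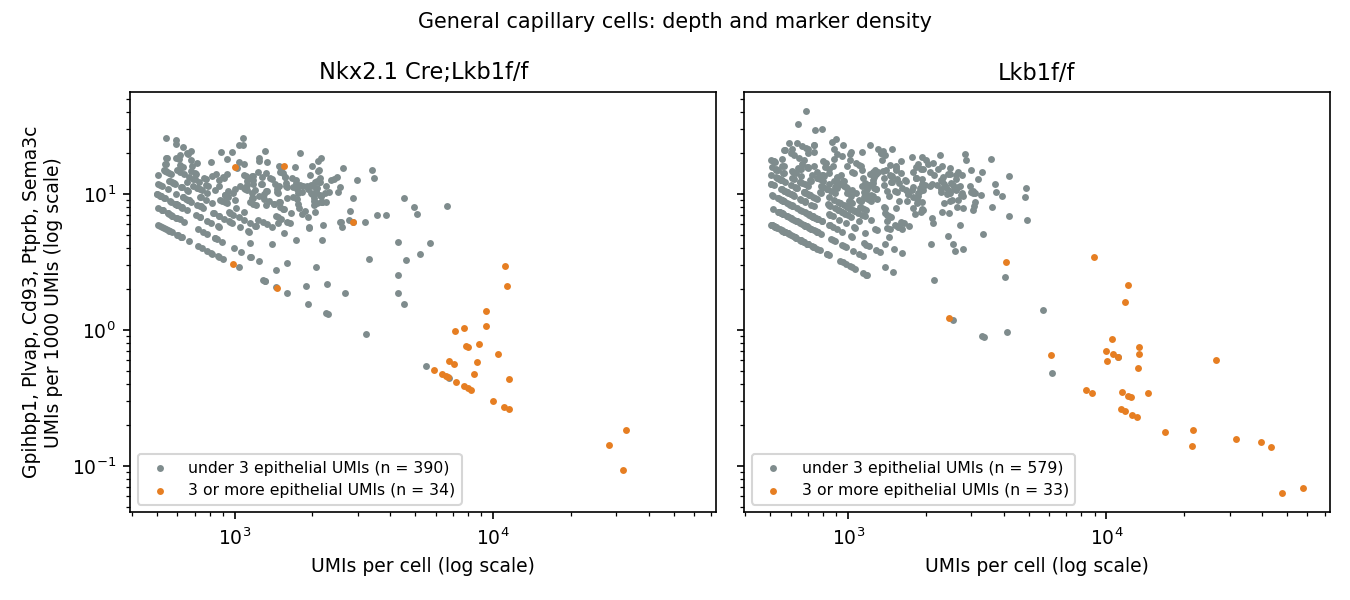
General capillary cells of the Nkx2.1 Cre;Lkb1f/f library (left) and the Lkb1f/f library (right), 1 point per cell. The x axis gives UMIs per cell and the y axis the UMIs of the 5 marker genes per 1000 UMIs, both on log scales; the orange cells with 3 or more epithelial UMIs, 34 and 33 in number, lie mostly at the deep, marker-poor corner.

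Over all members, 5452 genes had 50 or more UMIs, and a gene was counted as past 1.5-fold when its CPM ratio (the summed UMIs of the gene scaled by those of all genes, Cre over control) lay that far from the ratio of the median gene. By this count 415 genes (7.61%) were higher and 482 (8.84%) lower in the Cre library. The median gene itself stood at a log2 ratio of 0.26, and without centring on it the same rule gave 1103 higher and 212 lower. The genes furthest apart over all members were mostly epithelial products: Scgb1a1, the club cell secretory protein, had 22170 CPM in the Cre library and 104418 CPM in the control library, the airway gene Bpifa1 had 4.72 CPM in the Cre library and 3076 CPM in the control library, and the goblet cell gene Clca1 had 811 CPM in the Cre library and 0.777 CPM in the control library, where that was 1 UMI. Single cells carried much of this: 3523 of the 3957 Bpifa1 UMIs of the control library and 646 of the 687 Clca1 UMIs of the Cre library lay in 1 cell each. The gene values below are therefore from the members with under 3 epithelial UMIs, called Cre members and control members, a choice made after the values were seen. For a gene whose ratio is printed, the ratio over all members stands beside it wherever it differs by more than 1.5 times or turns a gene past 1.5-fold round. Among those members 4064 genes were measured, of which 345 (8.49%) were higher and 401 (9.87%) lower in the Cre library, and the median gene had a log2 ratio of 0.06. At 50 UMIs a 1.5-fold difference can lie within the counting interval.

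Stk11, the gene that encodes LKB1 and the target of the Cre, had 76.4 CPM in Cre members (40 UMIs) and 62.0 CPM in control members (45 UMIs), a ratio of 1.23 (0.784 to 1.93). The interval includes 1, so that no difference was detectable at this depth. In AT2 cells, alveolar epithelium of the Nkx2.1 lineage, Stk11 stood at 27.4 CPM in the Cre library and 41.2 CPM in the control library, a ratio of 0.666 (0.588 to 0.754). A 3' count reads no deleted exon unless the transcript is lost, so the value is no measure of recombination. Of the 22 genes of the LKB1, AMPK and SIK list 9 were measured in members, and none lay past 1.5-fold. Among all measured genes 9.87% were lower and 8.49% higher. Mark3, a kinase activated by LKB1, had a ratio of 1.41 (0.931 to 2.15), and the AMPK subunit gene Prkab1 had 0.773 (0.473 to 1.24).

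Most identity genes of the endothelium lay within 1.5-fold, as did most of all measured genes. The 20 genes with the highest CPM that were also at least 4-fold above the other cells of each library were led by Epas1, a hypoxia-inducible transcription factor, at 3316 CPM in Cre members and 3416 CPM in control members. Calcrl, the receptor of adrenomedullin and CGRP, had 3245 CPM in Cre members and 3103 CPM in control members, and Cdh5, VE-cadherin, 3235 CPM in Cre members and 2916 CPM in control members. Of these 20 genes 5 were lower past 1.5-fold and 0 higher, beside 9.87% lower and 8.49% higher among all measured genes. The lower ones were Ctla2a, Hpgd, Ier3, Ly6a and Ramp2. Sema3c, Ptprb and Cd93, also among the 20, are rule genes that chose the cells, and the shares over all genes leave them out. Ctla2a, which encodes a cysteine protease inhibitor, had 1185 CPM in Cre members and 2131 CPM in control members (0.556, 0.506 to 0.611). Of 15 measured pan-endothelial genes 13 lay within 1.5-fold of the median gene. The exceptions were Ramp2, the partner of Calcrl, with 1603 CPM in Cre members and 2781 CPM in control members (ratio 0.577, 0.531 to 0.625), and the TGF-beta co-receptor Eng, with 875 CPM in Cre members and 1453 CPM in control members (0.602, 0.539 to 0.673). The list median was -0.04 on the log2 scale relative to all measured genes.

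Of 13 measured general capillary genes outside the rule 12 lay within 1.5-fold, 1 was lower and none was higher. Among all measured genes 9.87% were lower and 8.49% higher. Kit, a receptor tyrosine kinase, had 772 CPM in Cre members and 567 CPM in control members (1.36, 1.18 to 1.57), and Aplnr, the apelin receptor, 292 CPM in Cre members and 210 CPM in control members (1.40, 1.11 to 1.76). Lpl, lipoprotein lipase, was close in both, at 436 CPM in Cre members and 415 CPM in control members. Hpgd, the enzyme that breaks down prostaglandins, was lower, with 1708 CPM in Cre members and 2600 CPM in control members (0.657, 0.606 to 0.712). The rule's own markers are a description: Gpihbp1 had 1053 CPM in Cre members and 1766 CPM in control members, Plvap 1210 CPM in Cre members and 1678 CPM in control members, and Sema3c 2725 CPM in Cre members and 2195 CPM in control members. Gpihbp1 was found in 71.0% of Cre members and 83.4% of control members, and after each cell was thinned to 500 UMIs in 46.2% of Cre members and 59.6% of control members. B cells, which should lack it, gave 0.525% in the Cre library and 0.253% in the control library at that depth. As each member had to hold at least 1 UMI of Gpihbp1 or Plvap, the distance from B cells was set by the selection. It is no support for the label. Among cells with under 3 epithelial UMIs, those just inside the threshold, with a marker sum of 3, numbered 35 in the Cre library and 61 in the control library, and 36 cells in the Cre library and 65 in the control library fell just outside with a sum of 2. A pan-endothelial UMI was present in 88.6% of the Cre cells and 93.4% of the control cells at a sum of 3, and in 61.1% of the Cre cells and 81.5% of the control cells at a sum of 2.

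Immediate early genes, which cells switch on within minutes of a stimulus and also during tissue dissociation, were the list with the lowest median. Of 21 measured genes of the immediate early and dissociation list 12 were lower and 3 higher, beside 9.87% lower and 8.49% higher among all measured genes, and the list median was -0.74. Atf3, a stress-induced transcription factor, had 220 CPM in Cre members (115 UMIs) and 1114 CPM in control members (808 UMIs), a ratio of 0.197 (0.161 to 0.240), and over all members 0.389. Socs3, the feedback inhibitor of JAK-STAT signalling, had 220 CPM in Cre members and 904 CPM in control members (0.243, 0.198 to 0.297). Fos had 568 CPM in Cre members and 1685 CPM in control members (0.337, 0.296 to 0.383), and 0.578 over all members. Egr1 had a ratio of 0.338 (0.284 to 0.401), and 0.559 over all members. Ier3, itself among the 20 most typical genes, had 1450 CPM in Cre members and 3272 CPM in control members (0.443, 0.408 to 0.481). Btg2, Fosb, Ier2, Junb, Jund, Ppp1r15a and Zfp36 were the other genes of the list that were lower, with ratios of 0.370 to 0.654 (Fosb 0.661 over all members). Dusp1, a MAP kinase phosphatase, and Ier5 stood near equal levels, at ratios of 1.01 (0.886 to 1.15) and 1.05 (0.855 to 1.28).

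The difference was also seen cell by cell. Without the list's heat shock genes, these transcripts made up a median of 0.606% of a cell's UMIs in Cre members (quartiles 0.334 and 1.05%) and 1.45% in control members (0.908 and 2.17%). Atf3 was found in 17.9% of Cre members and 49.2% of control members, and after thinning to 500 UMIs in 8.72% of Cre members and 33.7% of control members. The thinned shares in B cells were 2.89% in the Cre library and 4.30% in the control library. Before thinning, their median depths were 2038.5 UMIs in the Cre library and 3072 in the control library.

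**Figure D2:**
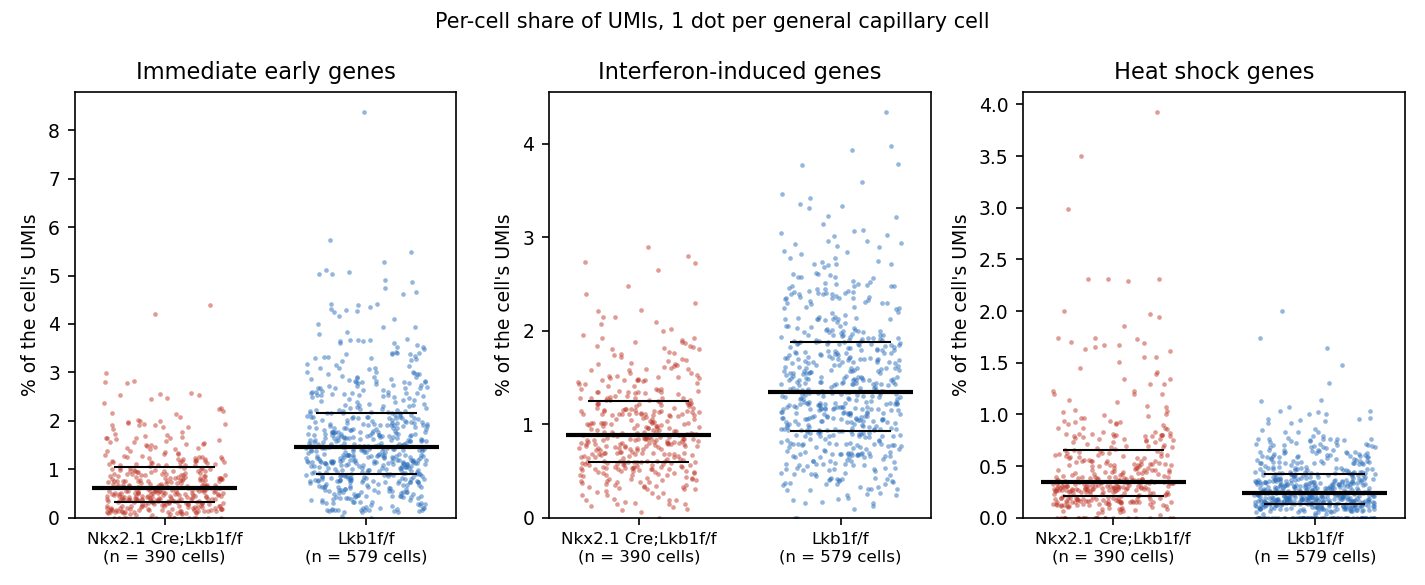
Share of each cell's UMIs in immediate early genes, interferon-induced genes and heat shock genes (y axes, %), 1 point per general capillary cell with under 3 epithelial UMIs, in 390 Nkx2.1 Cre;Lkb1f/f cells (red) and 579 Lkb1f/f cells (blue). Thick lines are medians and thin lines quartiles; the Cre cells have the lower median in the first pair of panels (0.606 against 1.45%, and 0.884 against 1.35%) and the higher one for heat shock genes (0.349 against 0.244%).

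The 3 genes of that list that were higher were all heat shock genes, Hspa1a, Hspa1b and Hspb1. Heat shock genes encode chaperones and are driven by the transcription factor Hsf1. A set of 10 of them was put together after these values were seen and includes Hspa1a, Hspa1b and Hspb1. It had 6 higher and none lower, beside 8.49% higher among all measured genes, and a median of 0.73. Hsph1, another of the 6, is also among the 15 genes named as higher. As members were chosen with their values known, the count is a description and no support for a shift of the group. Hspa1a, which encodes inducible Hsp70, had 688 CPM in Cre members and 258 CPM in control members (2.67, 2.23 to 3.20). Its near-identical copy Hspa1b had 698 CPM in Cre members and 215 CPM in control members (3.24, 2.68 to 3.94), and reads can be assigned to the wrong copy or dropped. Hsph1, a nucleotide exchange factor of Hsp70, had 87.9 CPM in Cre members (46 UMIs over 37 cells) and 13.8 CPM in control members (10 UMIs over 8 cells), a ratio of 6.38 (3.17 to 14.2). Hspb1 (1.75, 1.48 to 2.08), Serpinh1, the collagen chaperone (1.70, 1.44 to 2.01), and the mitochondrial chaperonin gene Hspd1 (1.96, 1.36 to 2.84) were also past 1.5-fold. Dnajb1, an Hsp40, had a ratio of 1.11 (0.766 to 1.60).

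Promoters of these genes are shown because the heat shock genes are the group that stood against the rest of their list. Each stretch below is the 150 bases before the RefSeq start site on the gene's own strand (GRCm38.p6), with capitals for the heat shock element letters GAANNTTC or TTCNNGAA, searched on both strands.
Hspa1a: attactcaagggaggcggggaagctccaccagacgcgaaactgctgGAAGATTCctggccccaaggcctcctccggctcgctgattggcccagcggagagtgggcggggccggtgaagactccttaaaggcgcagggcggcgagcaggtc
Hspa1b: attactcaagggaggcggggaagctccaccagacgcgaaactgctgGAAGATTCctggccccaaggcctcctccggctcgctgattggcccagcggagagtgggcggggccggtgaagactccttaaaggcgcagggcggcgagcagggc
Hspb1: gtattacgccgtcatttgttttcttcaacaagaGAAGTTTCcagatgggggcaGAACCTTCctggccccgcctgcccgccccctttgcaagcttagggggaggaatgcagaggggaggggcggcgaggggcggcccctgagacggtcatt
They lie at chr17:34972157-34972306 (minus strand), chr17:34959239-34959388 (minus strand) and chr5:135887769-135887918 (plus strand). The letters occurred within 250 bases before the start in 6 of the 8 heat shock genes listed in the promoter table (Hspa1a, Hspa1b, Hspb1, Hspd1, Hspe1 and Hsph1) and in 12.8% of all 32851 promoters. The 6 are not separate cases. Hspa1a and Hspa1b have near-identical stretches, and Hspd1 and Hspe1 overlap at their starts on opposite strands. The 6 of 8 also counts genes, while the 12.8% counts promoters, of which a gene can have several, so the values are not like for like. Dnajb1, whose ratio was near 1, was in the table and held no match in this window. Hspe1 held a match, but its ratio of 1.52 (1.17 to 1.99) did not lie 1.5-fold from that of the median gene. Whether the element has a part in these values was not tested.

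Of 24 measured interferon-induced genes 12 were lower and none higher, beside 9.87% lower and 8.49% higher among all measured genes, and the list median was -0.48. The members lower in the Cre library included GTPases that act on pathogen vacuoles and membrane proteins that block virus entry or release. Irgm1 had 59.2 CPM in Cre members (31 UMIs) and 192 CPM in control members (139 UMIs), a ratio of 0.309 (0.202 to 0.459). Iigp1 had 222 CPM in Cre members and 608 CPM in control members (0.365, 0.295 to 0.448), and Igtp 53.5 CPM in Cre members and 102 CPM in control members (0.524, 0.327 to 0.820). Ifitm3, which restricts virus entry, had 1821 CPM in Cre members and 3006 CPM in control members (0.606, 0.561 to 0.654), and Bst2, tetherin, 569 CPM in Cre members and 870 CPM in control members (0.655, 0.568 to 0.752). Ly6a, the stem cell antigen Sca-1, had 1443 CPM in Cre members and 2522 CPM in control members (0.572, 0.525 to 0.623). Ifitm1 had 7 UMIs in Cre members and 83 in control members, but 54 of the 83 lay in 1 cell, and without it the ratio was 0.335 (0.324 over all members). Of the transcription factor genes of the pathway, Irf1 was lower, with a ratio of 0.630 (0.523 to 0.757), and a pair of others were within 1.5-fold, Stat2 at 0.891 (0.569 to 1.38) and Irf9 at 0.852 (0.589 to 1.22). The guanylate-binding protein genes Gbp2 (1.30, 0.909 to 1.87), Gbp4 (1.35, 1.06 to 1.71) and Gbp7 (0.987, 0.755 to 1.29) were within 1.5-fold too.

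The interferon-stimulated response element, through which interferon switches on many of these genes, is shown for a pair of the lower genes, with its letters (GAAA, any 2 bases, then GAAA, both strands searched, overlaps allowed) in capitals in the 150 bases before the RefSeq start (GRCm38.p6).
Igtp: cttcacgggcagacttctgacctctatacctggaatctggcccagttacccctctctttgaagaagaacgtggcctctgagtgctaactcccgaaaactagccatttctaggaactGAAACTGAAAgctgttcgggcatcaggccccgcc
Bst2: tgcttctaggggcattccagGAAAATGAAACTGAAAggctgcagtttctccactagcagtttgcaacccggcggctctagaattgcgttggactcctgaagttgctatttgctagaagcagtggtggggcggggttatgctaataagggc
They lie at chr11:58199406-58199555 (plus strand) and chr8:71537473-71537622 (minus strand). These letters occurred within 250 bases before the start in 13 of the 23 interferon list genes in the promoter table and in 2.98% of all promoters. Here too the 13 of 23 counts genes and the 2.98% counts promoters. The 13 included Gbp2, Gbp7 and Stat2, whose values did not pass 1.5-fold.

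**Figure D3:**
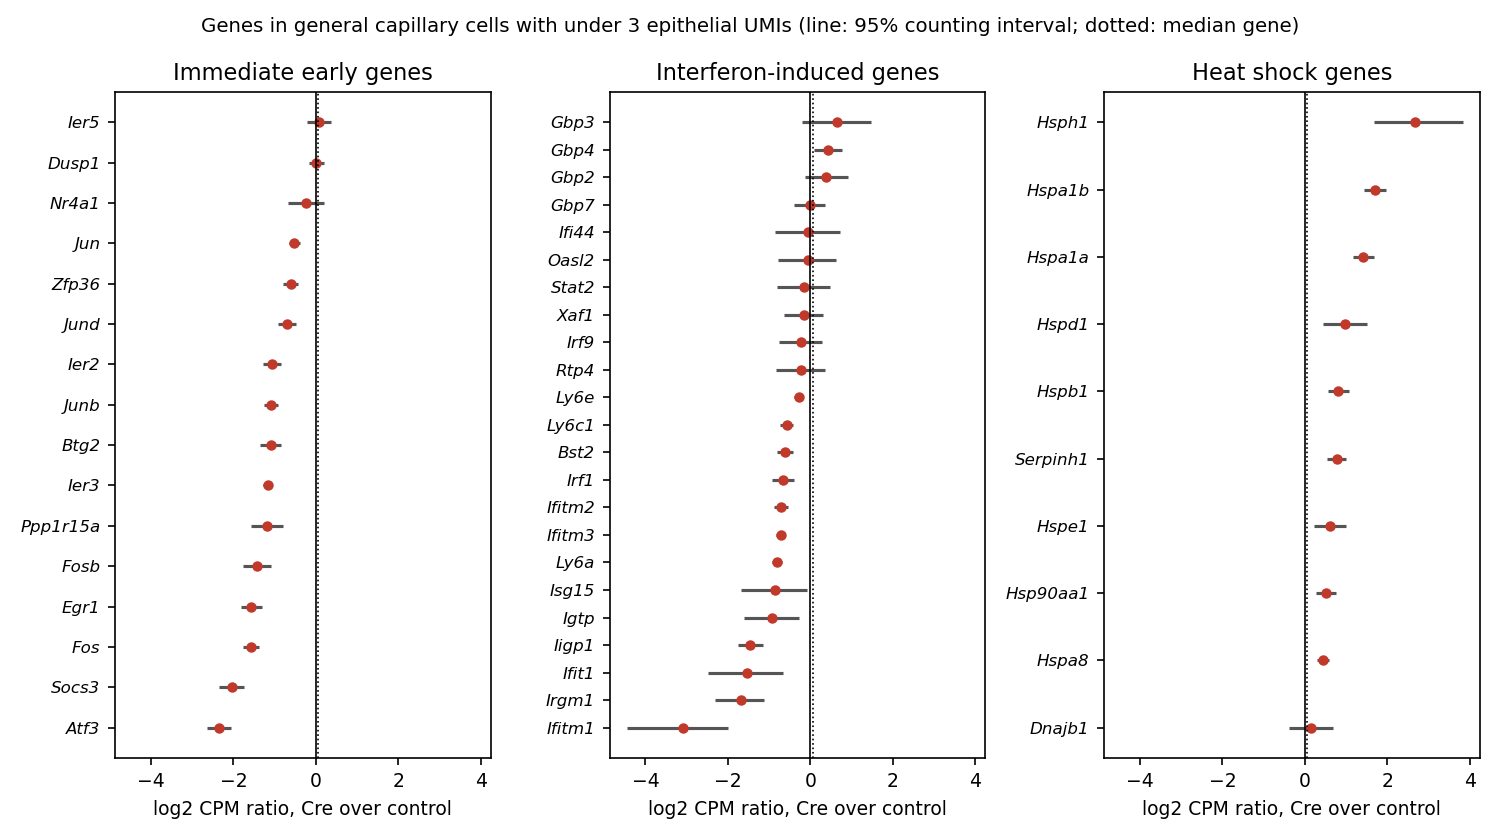
Log2 CPM ratio, Nkx2.1 Cre;Lkb1f/f over Lkb1f/f, of measured immediate early genes, interferon-induced genes (1 of the 24 is not drawn) and heat shock genes in general capillary cells with under 3 epithelial UMIs. Points are ratios, lines exact 95% counting intervals, the solid vertical line equal CPM and the dotted line the median gene; most points of the first pair of panels lie left of it and those of the heat shock panel right of it.

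Of 13 measured genes of MHC class I presentation 3 were lower, none was higher and 10 were within 1.5-fold, beside 9.87% lower among all measured genes, with a list median of -0.32. Of 5 measured class II genes 1 was lower, with a median of -0.38, and over all members 0 of 6, with a median of 0.12. H2-Q7 had 206 CPM in Cre members and 438 CPM in control members (0.471, 0.375 to 0.587), H2-D1 1565 CPM in Cre members and 2402 CPM in control members (0.652, 0.599 to 0.709), and B2m, the shared light chain, 2280 CPM in Cre members and 2905 CPM in control members (0.785, 0.730 to 0.843). These H2 genes are close paralogs, and reads may be split between them. Of 9 measured genes of leukocyte adhesion and inflammatory activation 4 were lower, beside the same 9.87%, with a median of -0.54 (3 of 10 over all members, with a median of -0.32): Icam2, a ligand of leukocyte integrins (0.590, 0.514 to 0.676), the chemokine gene Cx3cl1 (0.362, 0.174 to 0.694), the TNF receptor gene Tnfrsf1a (0.596, 0.457 to 0.771) and Nfkbiz (0.547, 0.340 to 0.858, but 0.932 over all members).

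Markers of other cells that these droplets could hold differed between the libraries. The 5 neutrophil markers summed to 231 CPM in Cre members and 1392 CPM in control members, with 1 marker at 0 in Cre members and none at 0 in control members. In the other cells of the libraries they summed to 2615 CPM in the Cre library and 16006 CPM in the control library. The 7 AT2 markers summed to 1827 CPM in Cre members and 4020 CPM in control members, and none was at 0. The 5 erythroid markers summed to 38092 CPM in Cre members and 20157 CPM in control members, and cells with over 20% haemoglobin, 9 in Cre members and 2 in control members, held 98.2% of the haemoglobin UMIs of Cre members and 97.2% of those of control members. Their part in the gene differences was not tested. With haemoglobin, mitochondrial, ribosomal and AT2 marker UMIs left out of the totals, 347 genes were higher and 393 lower.

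Of 10 measured genes of the p53 and cell cycle inhibitor list 4 were lower, none was higher and 6 were within 1.5-fold, beside 9.87% lower among all measured genes, with a median of -0.50. Btg2, also in the immediate early list, was among the 4. Cdkn1a, which encodes the cell cycle inhibitor p21, had 247 CPM in Cre members and 609 CPM in control members (0.405, 0.330 to 0.493), and 0.615 over all members. Gadd45g had a ratio of 0.448 (0.331 to 0.599) and Mdm2, the ubiquitin ligase of p53, 0.453 (0.246 to 0.796). Bax, an apoptotic target of p53, had 0.813 (0.607 to 1.08), and Phlda3 had 1.16 (0.754 to 1.79).

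Glucocorticoid-responsive genes went both ways. Of 10 measured genes 4 were higher and 1 lower, beside 8.49% higher and 9.87% lower among all measured genes, with a median of 0.28. Zbtb16, a zinc finger transcription factor, had 101 CPM in Cre members and 40.0 CPM in control members (2.53, 1.58 to 4.13), Tsc22d3, which encodes GILZ, 250.3 CPM in Cre members and 135 CPM in control members (1.85, 1.42 to 2.43), and the clock gene Per1 a ratio of 1.76 (1.17 to 2.66). Mt1, a metallothionein, had 1.79 (1.25 to 2.55), and among cells with 500 to under 1000 UMIs it turned round to a log2 ratio of -0.013. Cebpd, an acute phase transcription factor, was the lower one, with 470.1 CPM in Cre members and 1417 CPM in control members (0.332, 0.287 to 0.382). It was found in 31.5% of Cre members and 63.4% of control members, and after thinning to 500 UMIs in 17.9% of Cre members and 43.7% of control members. The thinned shares of Cebpd in B cells, also at 500 UMIs per cell, were 2.54% in the Cre library and 2.95% in the control library.

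VEGF signalling maintains these cells. Of 10 measured genes of the VEGF and angiopoietin list 9 lay within 1.5-fold, 1 was lower and none was higher. Among all measured genes 9.87% were lower and 8.49% higher, so the count does not set the list apart. The receptor genes Kdr (0.927, 0.774 to 1.11), Flt1 (0.829, 0.722 to 0.951) and Nrp1 (1.09, 0.936 to 1.28), and Vegfa (0.966, 0.819 to 1.14), were close to 1. Esm1, a proteoglycan gene of tip cells induced by VEGF, was the exception, with 19.1 CPM in Cre members (10 UMIs over 7 cells) and 101 CPM in control members (73 UMIs over 29 cells), a ratio of 0.190 (0.0874 to 0.369). Of 10 measured Notch genes the ligand genes Dll4 (0.580, 0.430 to 0.777) and Jag2 (0.647, 0.420 to 0.978) were lower, and the receptor genes Notch1 (1.04, 0.849 to 1.27) and Notch4 (1.27, 1.01 to 1.59) were within 1.5-fold. Of 16 measured BMP and TGF-beta genes Tgfbr2 was higher (1.68, 1.18 to 2.39) and Eng and the decoy receptor gene Bambi were lower (Bambi 0.536, and 0.804 over all members). Beside the Notch and BMP counts stand the same 9.87% lower and 8.49% higher among all measured genes.

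In the MHC class II, type 2 cytokine, lipid, CREB, oxidative phosphorylation and oxidative stress lists, among others, the median lay on 1 side of all genes in these members and on the other over all members. Several lists held no member past 1.5-fold in either direction: cell junctions with 14 measured genes, oxidative phosphorylation with 20, flow-responsive genes with 10 and angiocrine factors with 13. Beside these counts, and those of the lists that follow, stand 9.87% lower and 8.49% higher among all measured genes. The flow-responsive factors Klf2 (0.710, 0.645 to 0.781) and Klf4 (0.792, 0.708 to 0.886) were below 1 all the same. Of 12 measured basement membrane genes Lamc1 (1.65, 0.950 to 2.90) and Fn1 (1.95, 1.09 to 3.54, but 4.15 over all members) were higher and the protease gene Adamts1 lower (0.625, 0.546 to 0.713). The most abundant of them, the collagen IV gene Col4a1, had 2020 CPM in Cre members and 1506 CPM in control members (1.34, 1.23 to 1.46), and Sparc 1911 CPM in Cre members and 1435 CPM in control members (1.33, 1.22 to 1.45). In the endoplasmic reticulum stress list Herpud1 alone of 15 measured genes was past 1.5-fold (1.66, 1.15 to 2.41), and it turned round over all members, to 0.859. The chaperone genes Hspa5 (1.40, 1.21 to 1.61) and Hsp90b1 (1.45, 1.29 to 1.64) stayed inside it.

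**Figure D4:**
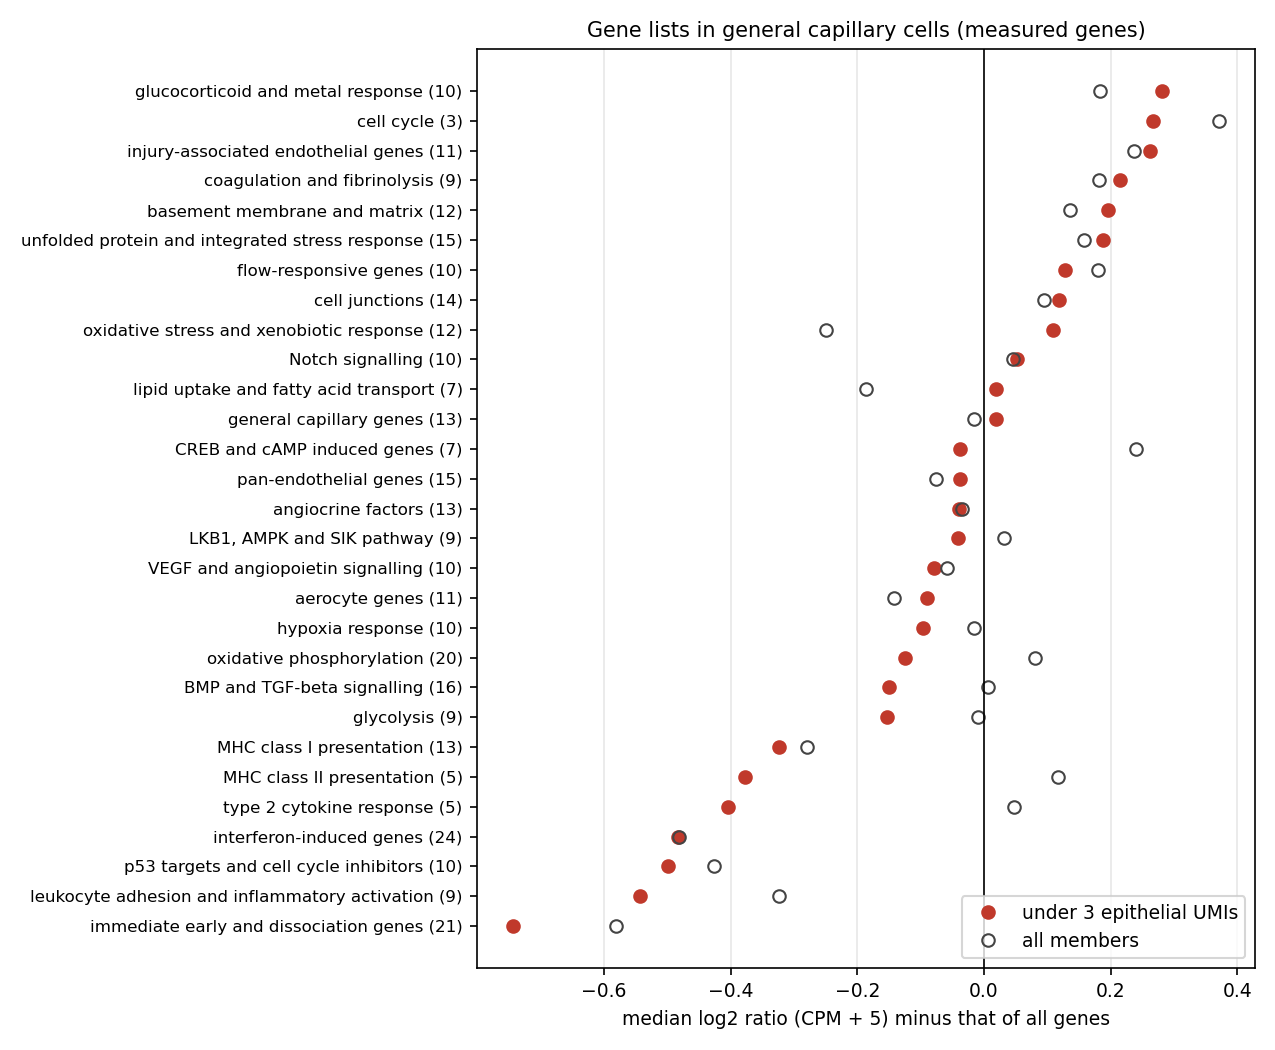
Median log2 ratio (CPM plus a pseudocount of 5, Nkx2.1 Cre;Lkb1f/f over Lkb1f/f) of 29 gene lists in general capillary cells, minus the median of all measured genes (x axis). Red points are members with under 3 epithelial UMIs, open circles all members, and the number after each list its measured genes in the red points; immediate early genes lie lowest at -0.74 and glucocorticoid and metal response genes highest at 0.28.

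Of the 15 genes with the clearest higher values under the naming rule, Ngp and Fabp4 had most of their Cre UMIs in 1 cell. Ngp, a neutrophil granule gene, had 75 UMIs in Cre members and 1 in control members, but 72 lay in 1 cell; its ratio was 104 (18.1 to 4160.1), and 57.0 (15.2 to 479) over all members. Fabp4, a fatty acid carrier, had 98 UMIs in Cre members and 34 in control members, of which 61 lay in 1 Cre cell, and its ratio was 1.51 without that cell. Fabp5, a gene of the lipid list and not among the 15, had 45 of 103 UMIs in 1 Cre cell. Its ratio was 5.29 (3.43 to 8.41), 2.98 without that cell and 1.02 over all members. Spread over many cells were Nrros, which anchors latent TGF-beta (86.0 CPM in Cre members over 38 cells and 17.9 CPM in control members over 13 cells, a ratio of 4.80, 2.54 to 9.69), and Mfhas1, a leucine-rich repeat signalling protein gene (82.2 CPM in Cre members and 20.7 CPM in control members, 3.97, 2.16 to 7.70). Txnip, the inhibitor of thioredoxin, had 734 CPM in Cre members and 397 CPM in control members (1.85, 1.58 to 2.16). Sh3bgrl, Ttc14, Slc25a36, Atxn1, Uhrf2, Mrpl32 and Phc3 were higher with ratios of 2.33 to 3.02 (Slc25a36 1.81 over all members).

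Among the 15 lowest, Prss34, a mast cell and basophil protease gene, had 0 UMIs in Cre members and 66 in control members, all in 1 cell, and 95 of the 106 Ccl3 UMIs and 75 of the 77 Rgs1 UMIs of control members lay in 1 cell each. Without that control cell the ratio turned round, to 2.39 for Ccl3 and 12.5 for Rgs1. The Cre UMIs were concentrated too, with 16 of 19 for Ccl3 and 14 of 18 for Rgs1 in 1 cell each. The rest of the 15 were spread over cells. Tmem252, a membrane protein gene, had 138 CPM in Cre members (51 cells) and 492 CPM in control members (164 cells), a ratio of 0.280 (0.214 to 0.361). Egr3, an immediate early transcription factor gene outside the list, had 6 UMIs in Cre members and 69 in control members (0.121, 0.0428 to 0.276, and 0.185 over all members). Cdc42ep4, Arid5a, which stabilises cytokine mRNAs, Sbno2 and Sertad1 had ratios of 0.341 to 0.443.

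The same ratios were taken in aerocytes (150 cells in the Cre library and 232 in the control library) and in venous cells (282 cells in the Cre library and 287 in the control library). Of 21 measured genes of the immediate early list 12 were lower in Cre aerocytes, where 8.15% of all measured genes were, and 16 of 21 in Cre venous cells, where 9.02% were. The list medians were -0.60 in aerocytes and -0.75 in venous cells. For Atf3 the ratio was 0.328 (0.266 to 0.401) in aerocytes and 0.367 (0.328 to 0.411) in venous cells, and for Socs3 0.383 (0.292 to 0.499) in aerocytes and 0.477 (0.423 to 0.538) in venous cells. In AT2 cells Atf3 had 1.33 (1.27 to 1.39), and in B cells 0.720 (0.645 to 0.802). The list as a whole was not lower in B cells, with a median of 0.14. There 4 of 22 measured genes were higher and 1 lower, beside 7.10% higher and 6.03% lower among all measured genes.

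The interferon list had 5 of 14 measured genes lower in Cre aerocytes, beside 8.15% of all measured genes. In Cre venous cells 10 of 24 were lower, beside 9.02%. The list medians were -0.40 in aerocytes and -0.55 in venous cells. In B cells the median was -0.005, with 3 of 22 measured genes lower and 1 higher, beside 6.03% lower and 7.10% higher. Irgm1 had a ratio of 0.911 (0.472 to 1.72) in aerocytes and 0.414 (0.251 to 0.665) in venous cells. Tmem252 had 1.85 in aerocytes, with an interval that includes 1, and 0.496 (0.441 to 0.557) in venous cells. Hsph1 was above 1 in aerocytes (9.29, 3.61 to 30.4), venous cells (3.72, 2.23 to 6.47), AT2 cells (5.16, 4.41 to 6.07) and B cells (3.17, 2.48 to 4.08). Hspb1 was not, with 0.747 (0.663 to 0.842) in aerocytes and 0.930 (0.848 to 1.02) in venous cells. Hspa1a and Hspa1b belong to the immediate early and dissociation list. Of its 21 measured genes 1 was higher past 1.5-fold in Cre aerocytes, beside 8.91% of all measured genes. In Cre venous cells 1 of 21 was, beside 7.45%. The rise of Hsph1 therefore does not stand for the other heat shock genes there. Gpihbp1, a rule gene, had 0.589 (0.482 to 0.718) in venous cells and 1.06 (0.805 to 1.40) in aerocytes.

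**Figure D5:**
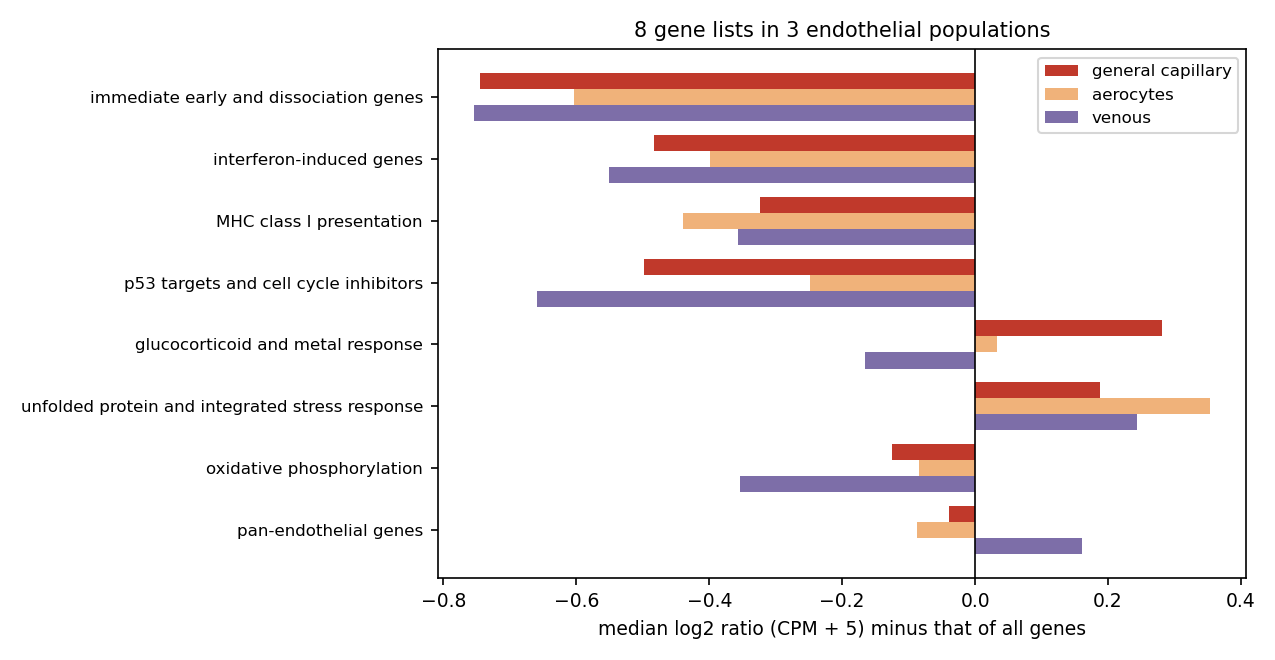
Median log2 ratio of 8 gene lists (x axis; CPM plus a pseudocount of 5, Nkx2.1 Cre;Lkb1f/f over Lkb1f/f, minus the median of all measured genes) in general capillary cells with under 3 epithelial UMIs (red), aerocytes (orange) and venous cells (purple). The immediate early bars lie at -0.74, -0.60 and -0.75, and the glucocorticoid bars at 0.28, 0.03 and -0.17.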

How the data were processed

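Lung cells were counted with a 10x Genomics 3' assay, 1 library per genotype. The authors deposited whole-number UMI counts, not normalized, and the submitters' processing notes name Cell Ranger 3.1.0, STAR and the mm10 build. A barcode was kept if it reached 500 UMIs and 200 genes with no more than 20% of its UMIs mitochondrial, which left 77983041 UMIs in the Cre library and 72757567 in the control library. Counts were summed over members of each library and scaled to CPM. Over all members the sums were 846690 UMIs in Cre and 1286338 in control. Over members with under 3 epithelial UMIs, from which most gene values come, they were 523286 in Cre and 725318 in control. Ratios were given exact conditional Poisson 95% intervals and shares Clopper-Pearson intervals. PCR and pooling error are not covered. The interval code was tested on simulated data. List medians used a pseudocount of 5 CPM and the genes with 50 or more UMIs. Named genes were the 15 highest and 15 lowest by the bound nearest 1, at 50 CPM or more and at 0.5 or more of the level in the other cells where they were higher, leaving out mitochondrial, ribosomal, haemoglobin, immunoglobulin, T cell receptor, predicted and sex-linked marker genes, the rule genes and the immediate early list. The rule was written for all members and applied to those with under 3 epithelial UMIs after the data were seen, and list members and typical genes served as further examples. Doublets were kept; Scrublet (scanpy 1.11.5) called 6 Cre and 7 control members. Of 31053 genes, 30934 matched GENCODE. Promoters came from RefSeq (GRCm38.p6). The members, the 29 lists and the alternatives were chosen with earlier results of these data known. A gene of the interferon list is counted but not reported here by name.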

Additional observations from a re-analysis of the deposited data

How the results depend on the processing

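The alternatives that change the cells of the members with under 3 epithelial UMIs were chosen after seeing the data. The lower share of members in the Cre library kept its sign in all 9 alternatives, from a log2 ratio of -0.87 to -0.23, and moved beyond its interval with endothelial cells as denominator (-0.23) and with 1000 or more UMIs (-0.58). The counts of genes past 1.5-fold depend on how many UMIs a gene needs. Over all members they were 156 higher and 161 lower after thinning to 1000 UMIs, 651 higher with the mean of single-cell CPM, 1504 and 1419 with 10 or more UMIs per gene, 75 and 104 with 200 or more, 1103 and 212 without centring, and 70 and 145 at a fold of 2. Among members with under 3 epithelial UMIs they were 169 and 150 after thinning, 104 and 130 in cells with 500 to under 1000 UMIs, 1392 and 1366 with 10 or more UMIs, 46 and 60 with 200 or more, and 52 and 101 at a fold of 2. Over all members 0 list medians lay past 1.5-fold, against 2 with at most 10% mitochondrial UMIs, 3 with a marker sum of 5, 4 after thinning, 2 with the mean of single-cell CPM, 1 with a pseudocount of 1, 2 with 20 or more UMIs per gene and 1 in members with under 3 epithelial UMIs; in those members the count became 3 with at most 10% mitochondrial UMIs, 2 with a marker sum of 5, 3 after thinning, 2 with the mean of single-cell CPM, 3 in cells with 500 to under 1000 UMIs, 2 with 3 or more pan-endothelial UMIs and 2 with 20 or more UMIs per gene. Of 30 named genes 27 kept their direction under every alternative that gave a value. Exceptions were Ccl3, with a log2 ratio of 0.60 after thinning, and Rgs1, with 2.46 at a marker sum of 5, 1.76 in cells with 500 to under 1000 UMIs and 3.63 with 3 or more pan-endothelial UMIs; for Prss34 no ratio exists. List genes that turned round were Isg15 (0.44) and Mt1 (-0.013) in cells with 500 to under 1000 UMIs, Ankrd37 (0.52) after thinning, and Aldoa (0.040), Herpud1 (-0.22) and Sod2 (0.14) over all members. The cause was not tested. Subtracting free RNA over all members gave no value, since Sftpc in the epithelial-bearing members would require subtracting more than the whole profile. No paired analysis was possible because each genotype has 1 library, and no replicate could be left out.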

Other observations

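A few members of the Cre library carried cell cycle transcripts. At least 3 UMIs of 10 mitosis and S phase genes (Mki67, Top2a, Cdk1 and others) were found in 7 of 390 Cre members with under 3 epithelial UMIs (1.79%, 0.725 to 3.66%) and in 0 of 579 control members, and 2 further Cre members held 2 UMIs. After thinning to 500 UMIs the counts were 6 Cre members (1.54%) and 0 of 579 control members. A count of 0 allows a share of up to 0.518% (3 cells of the total), and the exact 95% upper bound is 0.635%; both limit cells with 3 such UMIs, not cells in cycle. Top2a had 55 UMIs over 10 Cre cells, 25 of them in 1 cell, and 3 UMIs over 3 control cells (25.4, 8.25 to 127).

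Chil3 and Retnla, products of macrophages and epithelium in type 2 inflammation, were both higher in Cre members. Chil3 had 543 CPM in Cre members and 15.2 CPM in control members, and Retnla 306 CPM in Cre members and 17.9 CPM in control members (ratio 17.1, and 9.15 over all members). In B cells, which should lack both, Chil3 had 1656 CPM in the Cre library and 271 CPM in the control library. Retnla had 1641 CPM there in the Cre library and 62.6 CPM in the control library. B cells were not limited to under 3 epithelial UMIs, so they are no matched background. The 7 AT2 markers summed to 12316 CPM in B cells of the Cre library, against 1827 CPM in Cre members. In the control library the sums were 17558 CPM in B cells and 4020 CPM in control members. The part of free RNA in the Chil3 and Retnla values was not tested.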
